A study of Oncorhynchus mykiss with 14 samples.

Results

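The miRNAs described here are those numbered miR-17, miR-18, miR-20, miR-93 and miR-106 in lipid-storing mature adipocytes of adult rainbow trout. Of the 899 entries in the deposited table, 12 carried these numbers under an Atlantic salmon name. An entry was kept when its count was above 0 in at least 4 of the 14 libraries, which 9 entries met. The entries for both arms of miR-106a held identical counts in every library and were read as 1 miRNA, so 8 distinct miRNAs remained: miR-17-5p, miR-18a-5p, miR-18b-5p, miR-18b-3p, miR-20a-5p, miR-20b-5p, miR-93a-5p and miR-106a. The 3 entries that were not kept were miR-20a-1-3p (above 0 in 3 libraries), miR-93a-3p (2 libraries) and miR-20a-3-3p (1 library).

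The study compared 3 fat depots of untreated trout: visceral fat (VAT, 4 libraries, replicates 1, 3, 4 and 5), subcutaneous fat (SAT, 5 libraries) and intramuscular fat (IMAT, 5 libraries). The water was held at 15 ± 1 °C and the light cycle was 12 h on and 12 h off; fish ate a commercial diet and went without food for 24 h beforehand. Adipocytes of each depot were freed with collagenase type II, and small RNA was sequenced. Strain, sex and genotype are not given in the labels, and nothing in them ties libraries to separate fish, so the p-values below rest on a spread between libraries that could be technical only.

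In vertebrates, miR-17, miR-20, miR-93 and miR-106 share a seed, the stretch near the 5′ end that selects targets, while miR-18 has a closely related one. In mammals these miRNAs come from 3 related clusters: miR-17, miR-18a and miR-20a are cut from 1 transcript that MYC and E2F factors induce, miR-106a, miR-18b and miR-20b from a copy on the X chromosome, and miR-93 lies with miR-25 in an intron of Mcm7, a gene of DNA replication. They favour cell cycle entry and survival by repressing inhibitors such as p21 and the retinoblastoma family, and in mouse preadipocytes the miR-17 cluster speeds fat cell formation. Their arrangement in the trout genome was not analysed here, and no sequences are printed because none were in the sources used here.

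The libraries held 759369 to 11843805 summed counts. The tissue labels could be checked only through miRNAs, none of which marks adipocytes alone. All 12 entries of a list of miRNAs described in mammals as promoting or rising in fat cell formation were above 0 in each depot. So were all 9 entries of a muscle list, all 7 of a stroma list, all 12 of an epithelium list and the 1 of an endothelium list. Presence above 0 therefore cannot identify adipocytes. A gut and liver list had all 5 entries above 0 in VAT and 3 each in SAT and IMAT. It made up 0.0493 to 0.0697% of counts in VAT and 0.00785 to 0.0165% in SAT. In IMAT it made up 0.00244 to 0.00799% of all counts and 0.0104 to 0.0522% of those outside the muscle miRNAs. The part of such tissue in the levels of the members was not tested. miRNAs of skeletal muscle made up 65.5 to 89.6% of counts in the IMAT libraries, but 3.37 to 11.9% in those of SAT and 0.0888 to 4.65% in those of VAT, so every other share in IMAT is lowered. Levels are therefore given as TMM-scaled CPM (counts scaled to a common library size). TMM is a scaling that aims to set most entries level between libraries. Under it, the median log2 fold change of all tested entries was still -0.6 for IMAT minus VAT and -0.43 for IMAT minus SAT. The latter was not stable. It was -0.06 with median-ratio scaling, -0.01 without VAT 3, which is in neither depot, and -0.48 without IMAT 5. Each read comes from 1 mature miRNA, so no length term applies. Entries with identical counts may hold the same reads, which totals and shares then count more than once. Joining such entries lowered the total of IMAT 2 from 4429852 to 3255607. In such bulk samples fewer cells of a type and less RNA per cell cannot be told apart.

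The members were of low to middling abundance. miR-20a-5p, the most abundant by mean in each depot, ranked 87 of the 228 named and tested entries in VAT, 85 in SAT and 93 in IMAT. miR-20a-5p had more reads than miR-17-5p in 13 of 14 libraries, miR-17-5p more than miR-93a-5p in 12, and miR-93a-5p more than miR-106a in 11. miR-93a-5p exceeded miR-18a-5p in all 14. miR-20a-5p, miR-17-5p and miR-93a-5p were listed with a mature length of 23 nt, against 20 to 22 nt for the others.

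Members of the miR-17 cluster come first. miR-20a-5p held 198, 207.9, 11.9 and 187 TMM-scaled CPM in VAT 1, 3, 4 and 5. It held 143.4, 172, 131, 131 and 118 in SAT 1 to 5, and 139, 98.3, 124, 65.8 and 0 in IMAT 1 to 5. VAT 4 and IMAT 5 lay far below all other libraries, and the 3 depots overlapped. The means were 151 ± 93.3 in VAT (SD, n = 4), 139 ± 20.3 in SAT (n = 5) and 85.3 ± 55.2 in IMAT (n = 5), and no 2 neighbours in that order differed beyond their spread.

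miR-17-5p, the namesake of the cluster, held 94.4, 69.5, 8.75 and 99.9 TMM-scaled CPM in the VAT libraries in the same order. It held 58.8, 78.1, 48.3, 55.8 and 57.8 in SAT, and 48, 44.3, 57.8, 0 and 0 in IMAT. VAT 4 was again the low visceral library, and miR-17-5p was listed at 0 in both IMAT 4 and IMAT 5. The means were 68.1 ± 41.7, 59.8 ± 11 and 30 ± 27.8 in VAT, SAT and IMAT. Where both had reads (12 libraries), the count of miR-20a-5p was 1.36 to 2.99 times that of miR-17-5p, with a median ratio of 2.21.

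miR-18a-5p, the third member of that cluster, was scarcer. It held 9.16, 4.58, 1.87 and 46.8 TMM-scaled CPM in VAT, where VAT 5 alone, with 788 reads, stood above every other library. In SAT it ranged from 4.39 to 8.62 (median 6.58) and in IMAT from 1.57 to 6 (median 5.25), so those 2 depots overlapped. The means were 15.6 ± 21, 6.51 ± 1.65 and 4.48 ± 1.81, and the visceral one rests on VAT 5.

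miR-93a-5p, which in mammals lies with miR-25, held 55.8, 48.9, 4.13 and 58.3 TMM-scaled CPM in VAT. It held 48.2, 47.1, 30.7, 32 and 32.1 in SAT, and 25.9, 13.5, 20.3, 18.8 and 12.9 in IMAT. Every SAT library lay above every IMAT library, and VAT lay above IMAT except for VAT 4. The means were 41.8 ± 25.4, 38 ± 8.82 and 18.3 ± 5.34. As CPM of the counts outside the muscle miRNAs, IMAT held 55.9 ± 22.2, SAT 58 ± 18.9 and VAT 63.7 ± 41.5, so on that scale the means lay within 1 SD of each other.

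**Figure D1:**
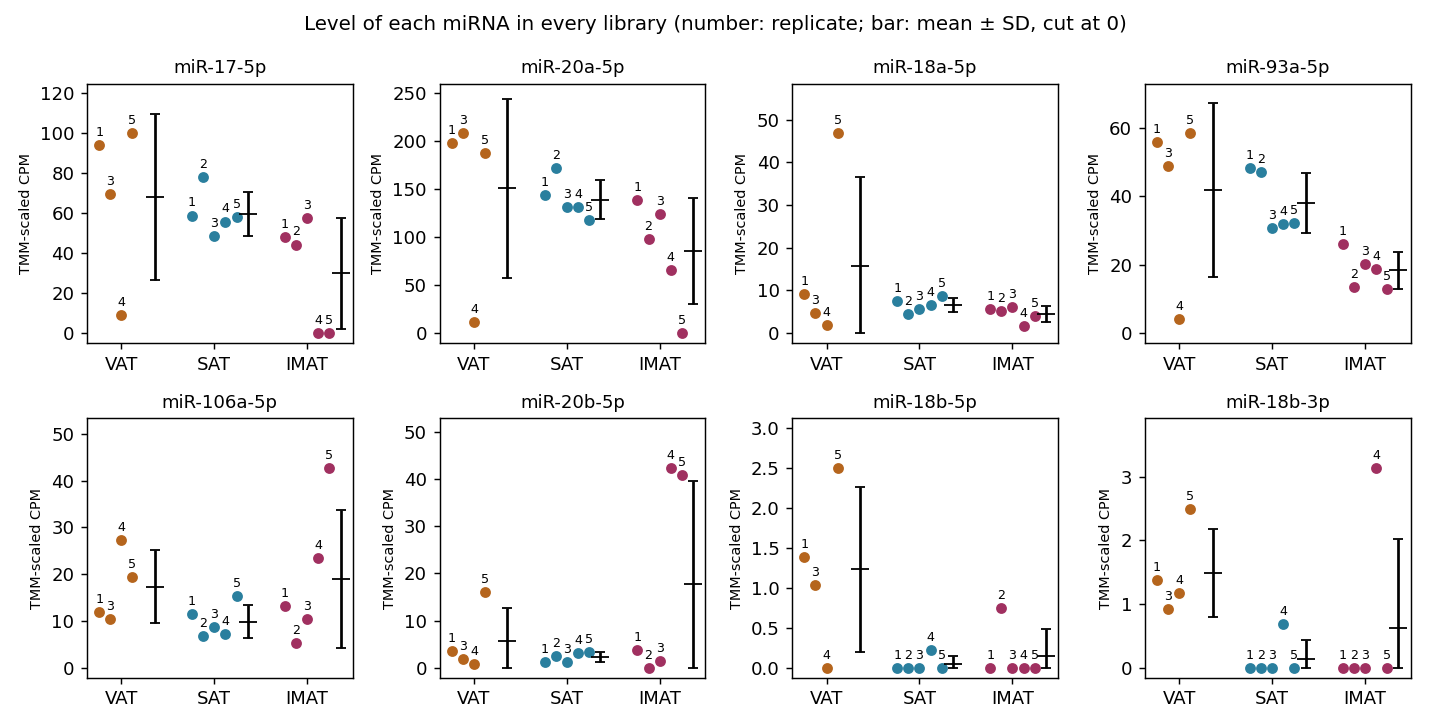
Each panel plots the TMM-scaled CPM (y axis) of 1 miRNA in every library by depot (x axis); points are libraries numbered by replicate, and the bar is the mean ± SD, cut at 0. miR-20a-5p and miR-17-5p are low in VAT 4 (11.9 and 8.75) and listed at 0 in IMAT 5, while miR-106a and miR-20b-5p have their highest values in IMAT 4 or IMAT 5.

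Next come the members that lie in the X-linked copy of the cluster in mammals. miR-106a held 11.9, 10.3, 27.3 and 19.5 TMM-scaled CPM in VAT, with its highest visceral value in VAT 4. It held 11.5, 6.7, 8.61, 7.26 and 15.3 in SAT, and 13.3, 5.25, 10.502, 23.5 and 42.6 in IMAT. The means were 17.3 ± 7.81, 9.86 ± 3.54 and 19 ± 14.8, with overlap between all depots, and since the entries of both arms carried the same counts the arm is uncertain.

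miR-20b-5p held 3.63, 1.83, 0.786 and 16.1 TMM-scaled CPM in VAT and 1.1 to 3.41 (median 2.54) in SAT. In IMAT it held 3.79, 0, 1.5, 42.3 and 40.9. The 2 high values were IMAT 4 (27 reads) and IMAT 5 (334 reads), while IMAT 1 to 3 had 6, 0 and 2 reads. The IMAT mean of 17.7 ± 21.9 therefore rests on those 2 libraries, against 5.58 ± 7.1 in VAT and 2.28 ± 1.1 in SAT.

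miR-18b was close to the detection limit. In VAT 1, 3, 4 and 5 the 5p entry had 8, 9, 0 and 42 reads and the 3p entry 8, 8, 12 and 42. Outside VAT, the 5p entry had 1 read in SAT 4 and 1 in IMAT 2, and the 3p entry 3 in SAT 4 and 2 in IMAT 4. All other SAT and IMAT libraries were listed at 0, where 3 counts would be 0.742 to 1.46 CPM in those of SAT and 0.253 to 3.95 CPM in IMAT; such limits and the intervals below cover counting error only. The near-equal counts of both entries in VAT 1, 3 and 5 leave the arm uncertain. On the TMM scale 3 counts are 1.89, 2.25, 2.25 and 4.7 CPM in IMAT 1 to 4. These lie above the VAT means of 1.23 (5p) and 1.49 (3p), so a level like that of VAT could go unseen there. In IMAT 5, 3 counts are 0.367 CPM, and in SAT they are 0.538 to 0.86 CPM. Those lie below the VAT means, but the VAT libraries ranged from 0 to 2.49 CPM (5p) and from 0.917 to 2.49 CPM (3p). The part of depth in the zeros was not tested. Both entries passed the minimum of 4 libraries largely through VAT, so their difference from the other depots is in part set by how they were admitted.

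The make-up of the summed member reads set 3 libraries apart. In the other 11, miR-20a-5p was the largest part, 43.3 to 60.3% of member reads, and miR-17-5p took 20.1 to 26.5%. In VAT 4 miR-106a was largest, with 278 of 569 member reads (48.9%, exact Clopper-Pearson 95% interval 44.7 to 53), and miR-20a-5p took 21.3% (18 to 24.9). In IMAT 5 miR-106a took 42.5% (39.1 to 46) and miR-20b-5p 40.8% (37.4 to 44.2) of 819 reads. IMAT 4 had only 99 member reads, of which miR-20a-5p took 42.4% (32.5 to 52.8) and miR-20b-5p 27.3% (18.8 to 37.1). Outside these 3 libraries miR-106a took at most 6.48% and miR-20b-5p at most 3.72%.

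**Figure D2:**
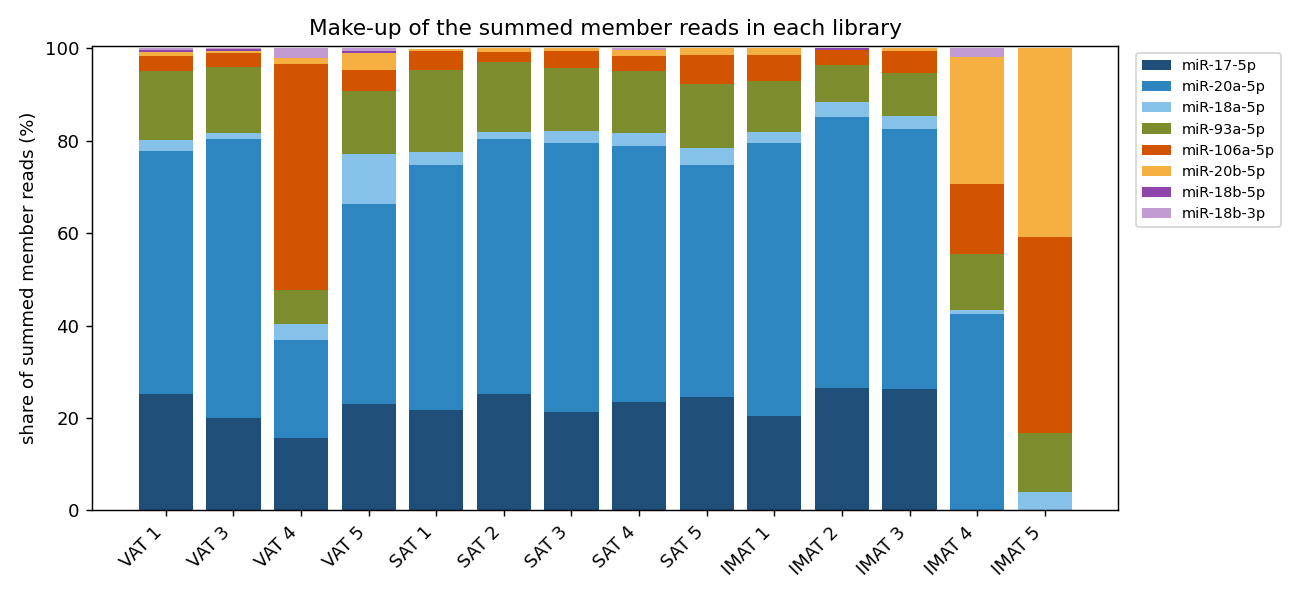
The stacked bars give the share (%, y axis) of each miRNA in the summed member reads of each of the 14 libraries (x axis). miR-20a-5p and miR-17-5p fill most of 11 bars, while miR-106a takes 48.9% in VAT 4 and miR-106a with miR-20b-5p take 42.5 and 40.8% in IMAT 5.

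The zeros of IMAT 5 were larger than counting error. At the lowest share above 0 of miR-20a-5p in the IMAT libraries, the 11843805 counts of IMAT 5 would hold 350 reads of it, and by the same reckoning 158 of miR-17-5p, yet both were listed at 0. For miR-17-5p in IMAT 4 the figure was 10.1 reads, with the 0 of IMAT 5 likewise set aside. Zeros for which this reckoning gave at least 20 reads were not particular to IMAT 5 or to these miRNAs. Over all tested entries there were 26 in IMAT 5, 35 in VAT 4, and 6 (IMAT 3) to 26 (SAT 3) in the other libraries. How reads that match several entries of this closely related family were assigned is not stated by any source read here; entries of near-identical sequence are uncertain for that reason, and its part in these values was not tested. VAT 4 had the lowest median correlation with the other libraries of its depot over all tested entries (r = 0.84, against 0.9 to 0.93 in VAT 1, 3 and 5), whereas IMAT 4 and IMAT 5, each at 0.88, were near IMAT 1 to 3 at 0.89.

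Over 14 libraries, log2(TMM-scaled CPM + 1) of miR-20a-5p and miR-17-5p had a Pearson r of 0.79 (Spearman 0.88), and miR-106a and miR-20b-5p an r of 0.71 (Spearman 0.56). Between miR-106a and the first pair the values were negative, with r = -0.73 for miR-17-5p and miR-106a (Spearman -0.31) and r = -0.74 for miR-20a-5p and miR-106a (Spearman -0.4). For miR-20b-5p, r was -0.66 with miR-17-5p and -0.44 with miR-20a-5p, but the Spearman values were 0 and 0.04, so the ranks showed no relation. Without VAT 4, IMAT 4 and IMAT 5 the values of miR-106a became 0.46 and 0.39 over 11 libraries and those of miR-20b-5p 0.7 and 0.56, so the negative values rest on those libraries. The 3 libraries were chosen after these members' values in them had been seen, so the change of sign is in part built in. Within the first pair r was then 0.83, and miR-93a-5p had an r of 0.88 with miR-20a-5p and of 0.82 with miR-17-5p. All of these are descriptions over libraries that share depots and scaling, with no test.

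**Figure D3:**
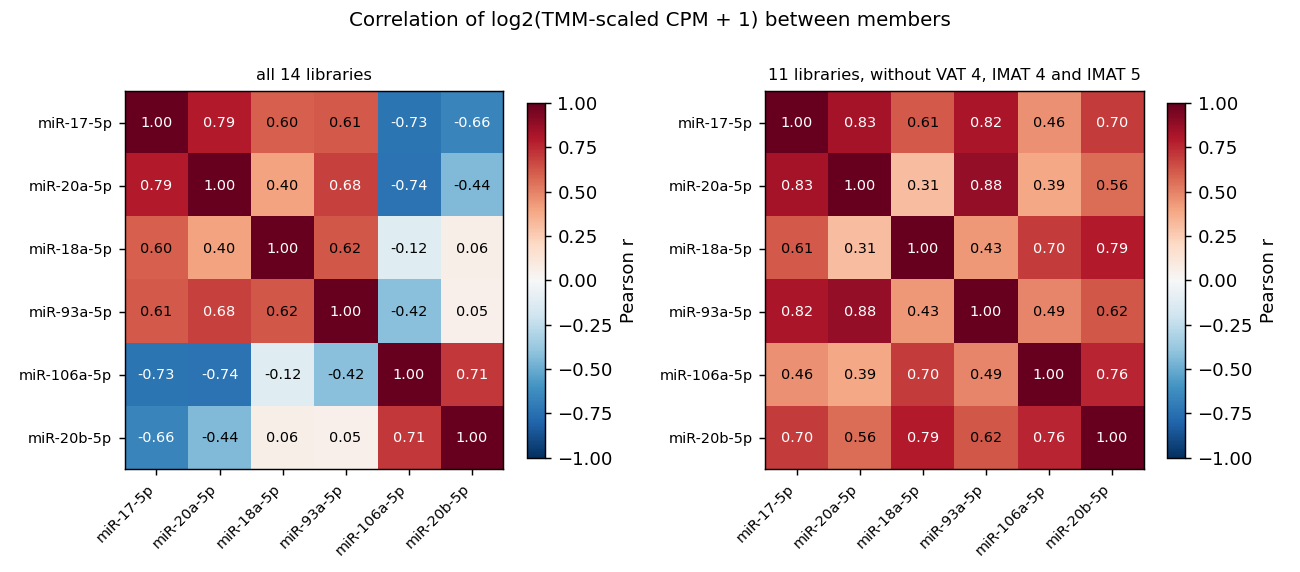
The grids show Pearson r between 6 members over 14 libraries (left) and over 11 (right, without VAT 4, IMAT 4 and IMAT 5); colour and number give r. The negative values between miR-17-5p or miR-20a-5p and miR-106a (-0.73 and -0.74) turn to 0.46 and 0.39. The libraries left out were chosen after their values had been seen.

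The depots were compared with edgeR's quasi-likelihood test on the deposited counts, two-sided, with all 14 libraries in 1 fit and Benjamini-Hochberg adjustment over all 327 tested entries; a call is an adjusted p under 0.05. None of the 8 members was called in any of the 3 comparisons. Among all tested entries the calls were 12.5% for SAT against VAT (7.34% higher and 5.2% lower in SAT). They were 13.5% for IMAT against VAT (7.65% higher and 5.81% lower in IMAT) and 6.73% for IMAT against SAT (3.67% higher and 3.06% lower in IMAT). In the same order DESeq2 called 0, 0 and 1 members, the last being miR-20b-5p, against 19.3, 26.3 and 14.4% of all entries. limma on log2(CPM + 1), which takes shares of all counts, called 2, 5 and 4 members. Of all entries it called 16.8, 53.8 and 53.2%, so the last 2 counts are near the background. Its 2 members for SAT against VAT were miR-18b-5p and miR-18b-3p (limma adjusted p = 0.031 each), which were also among the 5 for IMAT against VAT. Both were admitted largely through their VAT reads, so nothing is read from those calls. VAT enters both of the first 2 comparisons, so these are not independent of each other.

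For SAT against VAT, which sets fat under the skin beside fat around the viscera, at an unadjusted p under 0.05 stood 1 of 8 members, against 24.8% of all entries. That member was miR-18b-5p, with a log2 fold change (SAT minus VAT) of -4.2 ± 1.47 (SE; edgeR adjusted p = 0.08), where the SAT side is a single read. It was called without VAT 4, where it was listed at 0 (-4.8, edgeR adjusted p = 0.022), in a fit that called 14.7% of all entries. Since miR-18b-5p was admitted largely through its VAT reads, nothing is read from its fold change or from this call. For the abundant members the fold changes were near 0 with wide intervals: miR-20a-5p differed by -0.12 ± 1.1 (95% interval -2.48 to 2.24, edgeR adjusted p = 0.97), miR-17-5p by -0.19 ± 1.21 and miR-93a-5p by -0.14 ± 0.57 (interval -1.37 to 1.1). Only miR-18b-3p did not overlap between the depots, against 16.2% of all entries, with VAT counts of 8 to 42 and SAT counts of 0 to 3; it was admitted through its VAT reads, so nothing is read from this separation. All 8 fold changes were negative, as were those of 50.5% of all entries, and the median was -1.03 for the members, both miR-18b entries included, and -0.05 for all. Both miR-18b entries were admitted largely through their VAT reads, so nothing is read from these signs or this median against all entries. Most of these signs rest on single libraries. Leaving out VAT 5 brought miR-18a-5p to 0.33, miR-20b-5p to 0.14, miR-93a-5p to 0.07 and miR-17-5p to 0.06. Leaving out VAT 1 brought miR-20a-5p to 0.04. Outside the miR-18b entries, only miR-106a stayed negative whichever single library was left out.

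For IMAT against VAT, which sets fat within muscle beside visceral fat, at an unadjusted p under 0.05 stood miR-18a-5p alone, 1 of 8 against 33.9% of all entries (20.2% lower in IMAT), with a log2 fold change (IMAT minus VAT) of -1.78 ± 0.79 (edgeR adjusted p = 0.13); without VAT 5 it was -0.2 (edgeR adjusted p = 0.88). miR-93a-5p had -1.2 ± 0.58 (edgeR adjusted p = 0.16). Both were called without VAT 4, at -2.16 (edgeR adjusted p = 0.042) and -1.53 (0.006); these are 2 of 8 members in a fit that called 24.2% of all entries, a like share. miR-20a-5p had -0.83 ± 1.1, miR-17-5p -1.18 ± 1.21, miR-106a 0.15 ± 0.6 and miR-20b-5p 1.65 ± 1.27, with edgeR adjusted p of 0.4 to 0.88. No member was without overlap between the depots, against 15% of all entries. Fold changes were negative for 6 of 8 members, both miR-18b entries included, and for 65.7% of all entries, with medians of -1.19 and -0.6. As both miR-18b entries were admitted largely through their VAT reads, nothing is read from this split or these medians.

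For IMAT against SAT, 1 of 8 members stood at an unadjusted p under 0.05, against 25.7% of all entries. It was miR-20b-5p, with a log2 fold change (IMAT minus SAT) of 2.94 ± 1.24 (edgeR adjusted p = 0.15); DESeq2 gave 3.27 with an adjusted p of 0.032. This difference came with IMAT 4 and IMAT 5 and was -0.05 when VAT 4, IMAT 4 and IMAT 5 were left out. miR-93a-5p had -1.06 ± 0.55 (edgeR adjusted p = 0.25) and did not overlap between the depots on the TMM scale, which held for 18.7% of all entries. As CPM of the counts outside the muscle miRNAs the depots overlapped, with 25.7 to 76.8 in IMAT and 39 to 89.1 in SAT. Over 26 refits its fold change stayed negative but ranged from -2.42 to -0.07. miR-106a had 0.95 ± 0.57, miR-20a-5p -0.71 ± 1.04, miR-17-5p -0.99 ± 1.16 and miR-18a-5p -0.52 ± 0.75 (edgeR adjusted p = 0.33 to 0.74). These moved with the scaling: without VAT 3, a library of neither depot, they were 1.4, -0.3, -0.6 and -0.13. The signs were even, with 4 of 8 negative against 65.4% of all entries and medians of 0.22 and -0.43. The positive ones include miR-18b-5p (1.09) and miR-18b-3p (1.36), which had at most 3 reads in any SAT or IMAT library. Nothing is therefore read from this split against all entries.

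**Figure D4:**
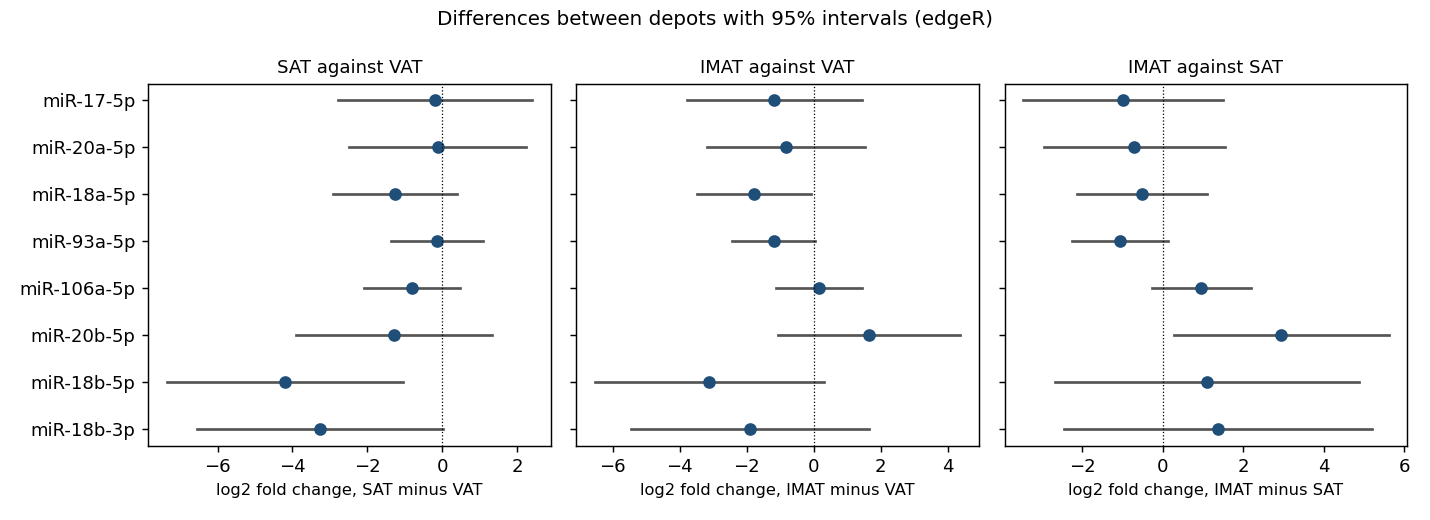
Points are log2 fold changes (x axis) of the 8 miRNAs (y axis) in each comparison of depots, and lines are their 95% intervals from the edgeR fit. Most intervals span 0, none of the 24 passed the adjusted threshold, and the widest belong to miR-18b, whose SAT and IMAT counts were 0 to 3.

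VAT 4, IMAT 4 and IMAT 5 were left out together in a further fit that was chosen after their values had been seen, so its calls describe the remaining libraries and are no independent support. In it miR-20a-5p (-0.88, edgeR adjusted p = 0.023), miR-17-5p (-0.89, 0.027) and miR-18b-5p (-4.83, 0.015) were lower in SAT than in VAT. miR-93a-5p was lower in IMAT than in VAT (-1.44, edgeR adjusted p = 0.015). Since miR-18b-5p was admitted largely through its VAT reads, nothing is read from its call. Of all entries this fit called 18.7% for SAT against VAT and 22.6% for IMAT against VAT. The levels of miR-20a-5p were then 198 ± 10.3 in VAT (n = 3), 139 ± 20.3 in SAT (n = 5) and 120 ± 20.5 in IMAT (n = 3). Those of miR-93a-5p were 54.4 ± 4.87, 38 ± 8.82 and 19.9 ± 6.19.

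The order of the depots for the members as a whole followed the scale. As CPM of all counts, the summed members stood at 454 ± 274 in VAT, with a range of 85.4 to 665, at 358 ± 73.8 in SAT (253 to 458) and at 93.4 ± 32.9 in IMAT (50.3 to 130). As TMM-scaled CPM the sums were 302 ± 168, 256 ± 35.1 and 176 ± 54. As CPM of the counts outside the muscle miRNAs they were 463 ± 282 in VAT, 387 ± 76.8 in SAT and 538 ± 210 in IMAT, so IMAT moved from the lowest mean to the highest. VAT 4 was the lowest visceral library on each scale. The muscle miRNAs moved with this result, and their part in the differences of single members was not tested beyond the refits without them: there, edgeR called 0 members in each comparison, both with TMM and with totals as the only scaling.

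**Figure D5:**
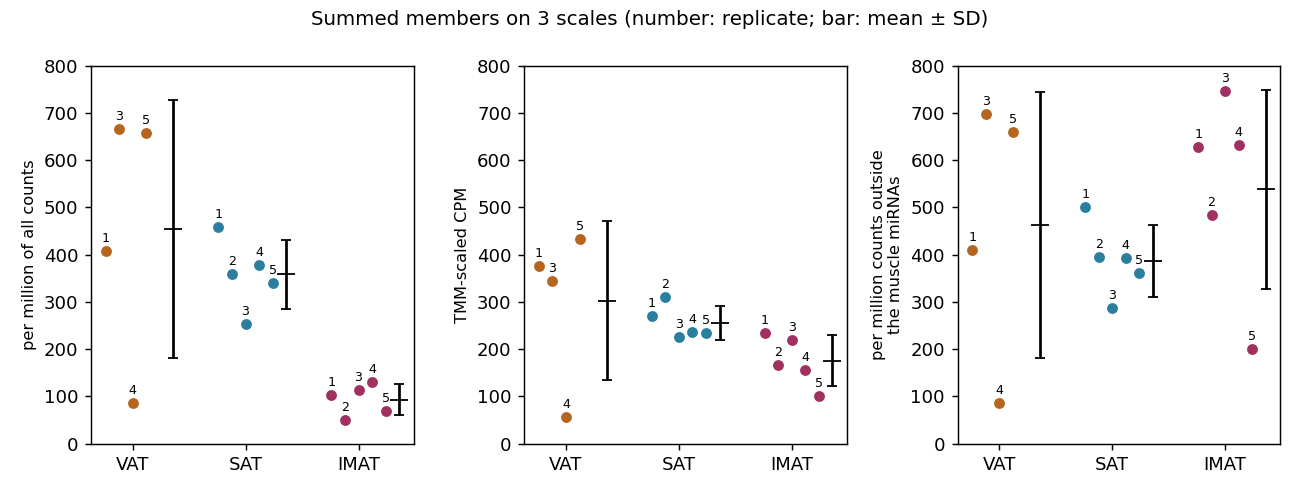
The panels give the summed members in each library (points, numbered by replicate; bar: mean ± SD) by depot on 3 scales, each y axis running from 0. IMAT lies between 50.3 and 130 CPM of all counts but between 201 and 746 CPM of the counts outside the muscle miRNAs.

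The other miRNAs of these clusters, miR-19, miR-25, miR-92 and miR-363, had 13 entries in the table under the first 3 numbers and none under the last; 9 were tested, 6 of them distinct by their counts. None was called in any comparison. Over the 9 tested entries, identical ones counted separately, the medians were -0.74 for SAT against VAT, -1.12 for IMAT against VAT and -0.29 for IMAT against SAT. Those of all tested entries were -0.05, -0.6 and -0.43. The medians of the related entries are the values of single miRNAs: miR-25 for the first and last, and miR-92a for the second. The entries miR-25-3p and miR-25-3-3p count as distinct but were nearly alike, with highest IMAT counts of 18746 and 18741. miR-19d-3p, whose mammalian relatives lie beside miR-17, stood at an unadjusted p under 0.05 in both comparisons with IMAT (-1.44 ± 0.56 against VAT and -1.26 ± 0.54 against SAT, edgeR adjusted p = 0.1 and 0.15).

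Among 219 other named entries, the 5 with the profile most like the mean of the 7 members counted on the 5p arm were miR-142b-3p (Pearson r = 0.91 over 14 libraries), miR-103-3p (0.88), miR-135b-5p (0.85), miR-29b-1-3p (0.81) and miR-24a-4-3p (0.8). Not all members follow that mean: miR-106a had an r of -0.36 with it and miR-20b-5p of -0.02, against 0.67 to 0.88 for the other 5. miR-135b-5p averaged under 1 CPM in each depot. With depot means subtracted the values were 0.94, 0.92, 0.86, 0.87 and 0.77. Without VAT 4, IMAT 4 and IMAT 5 they were 0.88, 0.68, 0.88, 0.49 and 0.53 over 11 libraries. miR-142b-3p, made in blood cells, was listed at 0 in VAT 4 and had 7372 reads in VAT 5, the library with the most miR-18a-5p. The list of white blood cell miRNAs (4 entries, of which miR-142a-3p was at 0 in every SAT library) made up 0.0356 to 0.112% of the VAT counts, 0.0233 to 0.0616% of those in SAT and 0.00352 to 0.0169% of those in IMAT. Outside the muscle miRNAs these were 0.0357 to 0.113%, 0.0254 to 0.0674% and 0.0339 to 0.0537%, so IMAT then lay within the range of SAT. The red blood cell list (2 entries) made up at most 0.00384% in any library. Its entries were miR-144-5p and miR-144-3p, with the same highest count in each depot, so it speaks for that miRNA only. The part of blood cells in the levels of the members was not tested.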

How the data were processed

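Small RNA reads of 14 libraries were counted by the authors; the deposited counts per miRNA entry are whole numbers that were not scaled. A second deposited column per library, headed TPM, equals CPM within 0.005 and carries no length term; the authors' CPM values were not used further. The deposited table also gives each mature length in nt. Per the submitters' processing notes, the tools include Trimmomatic 0.30 and edgeR 3.4.6, with no role assigned. Aligner, genome build and miRNA caller: not given in the sources used here. There were 2 columns of per-sample values that match no sample label, and they were left out.

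The title of each library gave its depot. Entries above 0 in at least 4 libraries (327, of which 228 named) were tested with edgeR 4.0.16 (R 4.3.3): TMM scaling, estimateDisp, glmQLFit and glmQLFTest, depot as the only term, and no block. SE is the fold change over the root of F. Alternatives used DESeq2 1.42.0, limma 3.58.1 on log2(CPM + 1), other scalings and filters, and fewer libraries. The scripts were tested on simulated data. Members and lists were chosen with earlier results of these data known. All members are named; the 5 most alike entries were chosen by Pearson r with the mean centred log2 profile of the 5p members. Library totals bound precision: 3 counts are 0.253 CPM in the deepest and 3.95 CPM in the shallowest library.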

Additional observations from a re-analysis of the deposited data

Results flagged for a closer look

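In each depot with 4 or 5 libraries, a library was singled out when its gap to the nearest other was large against the whole range of the depot (Dixon's 95% criterion). Of 24 combinations of member and depot, 6 were singled out, but in 4 of them every other library was at 0, so that any read meets the criterion. For the other 2, chance alone singles out about 1 in 20 combinations. miR-20a-5p in VAT 4 held 11.9 TMM-scaled CPM, with the nearest VAT library at 187. miR-18a-5p in VAT 5 held 46.8, with the nearest at 9.16. The 4 forced by zeros rest on 1 to 3 reads: miR-18b-3p in IMAT 4 (3.13) and SAT 4 (0.681), and miR-18b-5p in IMAT 2 (0.751) and SAT 4 (0.227).

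Among the entries above 0 in too few libraries to be tested, miR-20a-1-3p had 14 reads in VAT 4 against at most 5 elsewhere, and miR-20a-3-3p had 4 reads in IMAT 4 and 0 elsewhere. Both exceed the limit of 3 counts that a count of 0 allows. Entries of the 3p arm made up 10.4% of miR-20a reads in VAT 4, with 121 reads of the 5p arm, and 8.7% in IMAT 4, with 42, against at most 0.158% in the other libraries with reads.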

How the results depend on the processing

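Counts of called members stayed at 0 in all 3 comparisons with median-ratio scaling, the muscle list left out (with TMM or with totals), no filter, the stricter filter, identical entries joined and the fit of only 2 depots. The stricter filter, at least 10 counts in 4 libraries, left out both miR-18b entries, so its 0 covers the other members only. In the order SAT against VAT, IMAT against VAT and IMAT against SAT, limma on log2(CPM + 1) called 2, 5 and 4 members, library totals 0, 3 and 1, DESeq2 0, 0 and 1, and the fit without VAT 4, IMAT 4 and IMAT 5 called 3, 1 and 0. Of all 327 entries these called 55, 176 and 174, then 33, 162 and 131, then 63, 86 and 47, and last 61, 74 and 50. Leaving out single libraries gave 0 to 1, 0 to 2 and 0 to 0 members, against 25 to 48, 36 to 79 and 15 to 43 of the 327 entries. Some of these member calls are miR-18b entries, admitted largely through VAT, from which nothing is read. Of 618 refitted member fold changes, 562 kept their direction and side of the threshold, 23 became calls and 33 changed sign; the cause was not tested.

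The calls among all entries were 41, 44 and 22. They were 63, 86 and 47 with DESeq2, and 17, 26 and 11 without a filter. Library totals gave 162 for IMAT against VAT and 131 for IMAT against SAT (median log2 of all entries -1.99 and -1.81, with TMM -0.6 and -0.43), and limma 176 and 174. The fit of IMAT and VAT alone gave 26, totals without the muscle list 27 for SAT against VAT, and the fit without the 3 libraries 74 for IMAT against VAT and 50 for IMAT against SAT. Single libraries left out gave 25 to 48, 36 to 79 and 15 to 43. The split of calls moved as well: 24 higher and 17 lower for SAT against VAT became 14 and 25 with median-ratio scaling, and 25 higher and 19 lower for IMAT against VAT became 18 higher of 162 with library totals and 41 and 6 with totals without the muscle list. The 12 higher and 10 lower for IMAT against SAT became 16 and 7 with median-ratio scaling, 7 higher of 131 with library totals and 17 and 2 with totals without the muscle list. The summed members of IMAT moved from 93.4 to 538 CPM when the muscle list left the total.

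Signs changed as follows. With library totals miR-106a was -1.08 for IMAT against VAT and -0.19 for IMAT against SAT, and miR-18b-5p -0.25 for the latter. With limma these 3 were -1.41, -0.59 and -0.03, miR-20b-5p was -0.11 for IMAT against VAT, and miR-20a-5p, miR-17-5p and miR-93a-5p were 0.38, 0.15 and 0.25 for SAT against VAT. With totals without the muscle list, IMAT against SAT was 0.01 for miR-17-5p, 0.38 for miR-18a-5p and 0.36 for miR-20a-5p, which was 0.19 for IMAT against VAT. Without the 3 libraries, IMAT against SAT was 0.12 for miR-17-5p, 0.13 for miR-18a-5p, 0.16 for miR-20a-5p, -0.05 for miR-20b-5p and -2.67 for miR-18b-3p, and IMAT against VAT was -0.52 for miR-106a and -2.03 for miR-20b-5p. With single libraries left out, SAT against VAT ranged from -0.89 to 0.06 for miR-17-5p, -0.88 to 0.04 for miR-20a-5p, -0.87 to 0.07 for miR-93a-5p, -1.99 to 0.33 for miR-18a-5p and -1.99 to 0.14 for miR-20b-5p. IMAT against VAT ranged from -0.41 to 0.59 for miR-106a, and IMAT against SAT from -0.63 to 0 for miR-18a-5p, -2.86 to 4.21 for miR-18b-3p and -1.58 to 2.7 for miR-18b-5p.

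Replicate numbers are shared between depots, and the labels do not say whether a number marks 1 fish. Deviations of same-numbered libraries had r of -0.24 to 0.19, and the best match had the same number for 0 of 4 pairs of SAT and VAT, 1 of 4 of IMAT and VAT and 1 of 5 of IMAT and SAT. With 4 or 5 pairs this check cannot decide whether fish were shared, and nothing is concluded from it. The numbers were not used as pairs because the labels do not tie them to fish, and shared fish were not tested. With the replicate block 0 members were called in each comparison, and 2, 10 and 15 entries in all. Depth limits miR-18b and the members in IMAT 4, which had 99 member reads.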

Other observations

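The 2 entries of miR-142, of which miR-142b-3p had the profile most like the mean of the members, shared counts in some libraries only. In VAT 1, VAT 3 and IMAT 1 both entries held the same 495, 524 and 29 reads. In the other 11 libraries miR-142a-3p was listed at 0, while miR-142b-3p had 7372 reads in VAT 5, 76 to 130 in SAT, 11 to 47 in IMAT 2 to 5 and 0 in VAT 4.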
